A study of Mus musculus with 10 samples.

Results

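The small leucine-rich proteoglycans and the large proteoglycan versican are secreted proteins of the extracellular matrix, and 10 of their genes were examined here in the mouse heart: Dcn, Lum, Bgn, Fmod, Ogn, Omd, Prelp, Aspn, Podn and Vcan. They were chosen by name, as the probes whose RefSeq transcript belongs to 1 of these genes. The array named 22911 genes, and these 10 members have 13 of its 56605 probes. All 10 genes had a probe well above background on every array, so none of them entered the tests through a single region. Where a gene had several probes, the brightest stands for it, and the other probes of Prelp and Vcan are given beside it.

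The hearts came from C57BL/6N mice, whose age and sex the labels do not give and for which the labels name no treatment. Pieces of RV (right ventricle), LV (left ventricle) and the septum, the muscular wall between these chambers, were compared. Total RNA of each piece was hybridised to its own one-colour Agilent array, giving 4 RV, 3 LV and 3 septum arrays, and the comparison asks which transcripts differ between regions of the heart. The series' design text has separate mice for the separate experiments, but whether pieces with the same number came from one heart is not stated.

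Small leucine-rich proteoglycans are built on a curved protein core of leucine-rich repeats, and many carry chains of chondroitin, dermatan or keratan sulfate. They bind collagen fibrils, set fibril diameter and spacing, and hold growth factors such as TGF-beta in the matrix. In the heart they are made mainly by fibroblasts, and they are abundant in valves, in the fibrous annulus and around vessels. Versican is a much larger chondroitin sulfate proteoglycan that binds hyaluronan and is best known from the developing heart and the valves.

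Each level is a log2 signal for which the array's own 75th percentile was set to 0, so a negative level is a signal below that percentile. A level of one probe cannot be set against that of another probe, and only differences between regions are compared. Between 53.7% and 64.0% of spots were well above background and 0 were saturated, and the number of arrays limits the precision of all values. The arrays lay on 2 slides. The arrays numbered 1 and 2 were on slide 1 in all regions, and those numbered 3 and 4 were on slide 2. All 12 cardiomyocyte markers were above background on every array, and limma called 0 of them between regions. With the replicate number as a block, 3 of them were lower in RV than in LV and 2 lower than in the septum. In whole tissue, fewer cells of a type and less RNA per cell cannot be told apart.

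The proteoglycan transcripts were higher in RV than in LV for most members. Of the 10 genes, 9 had a higher mean in RV, and 7 had all RV arrays above all LV arrays, while 8.1% of all probes had that order. The median difference over the members was 0.54 on the log2 scale, against -0.05 over all 14645 genes tested, and without LV array 3 it was 0.32. Within slide 1 the members' median was 0.28 and within slide 2 it was 0.87. By limma with Benjamini-Hochberg adjustment over all probes, Fmod, Omd and Dcn passed an adjusted p of 0.05 and 0 members were lower. By an analysis of variance with Tukey's procedure, which the study's methods name, 0 members passed and 2.6% of all probes did. Benjamini-Hochberg adjustment over all probes was added here, which those methods do not name, so the authors' own criterion was not applied. Each member's value was the larger of its adjusted analysis of variance p and its Tukey p. It was 0.0605 for Fmod, 0.114 for Omd and 0.112 for Dcn. The background in limma was 3.86% of the 30234 probes called in either direction and 2.31% called higher in RV. With the replicate number as a block, in which RV array 4 has no partner and adds nothing, 5 members were called higher in RV, the additional genes being Ogn and Prelp, beside 6.23% of all probes called higher and 14.9% called in either direction.

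**Figure D1:**
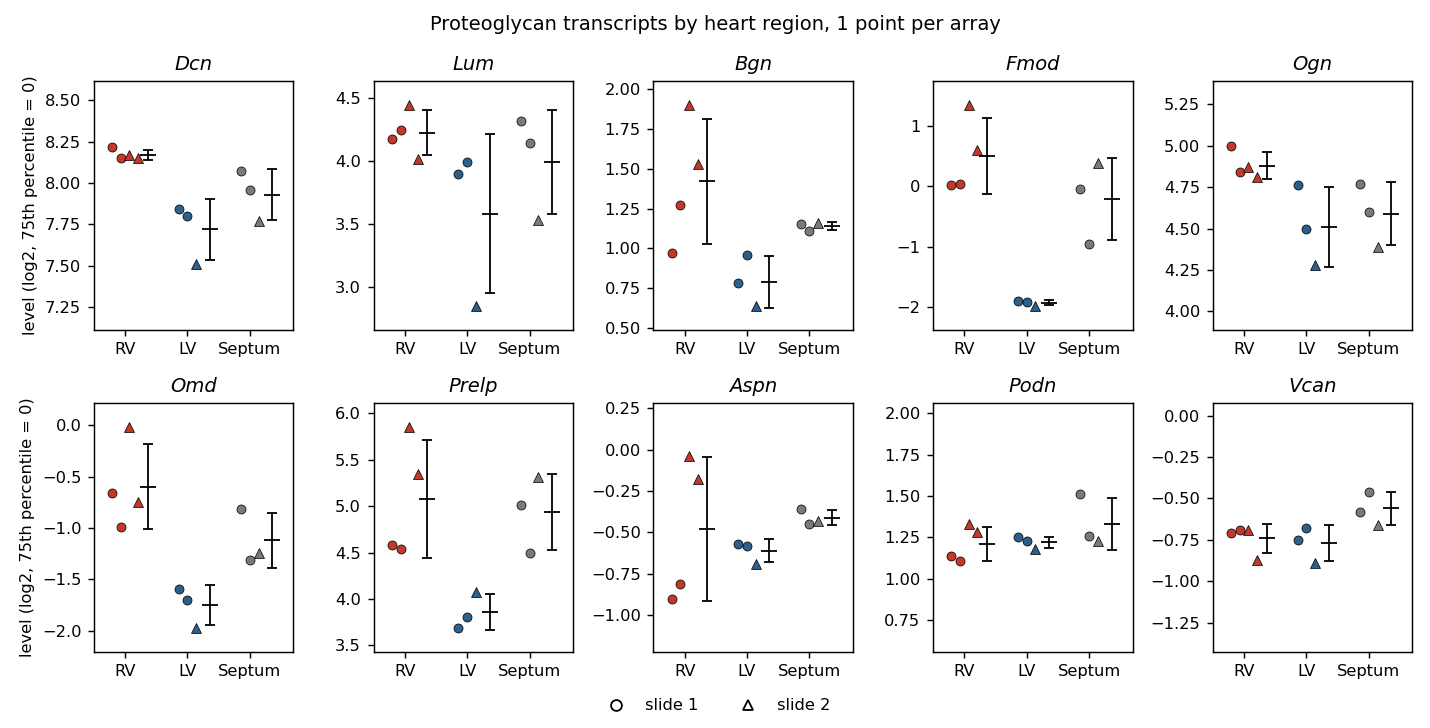
Level of each of the 10 genes (log2 signal, 75th percentile of the array set to 0) on every array of RV, LV and septum, with circles for slide 1 and triangles for slide 2; bars show mean ± SD over 4, 3 and 3 arrays, and the vertical scale differs between panels. The LV arrays of Fmod sit between -1.97 and -1.89, below all RV and septum arrays, whereas the 3 regions overlap for Podn.

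Fmod encodes fibromodulin, a keratan sulfate proteoglycan that binds collagen I and guides fibril assembly. Its level was 0.02, 0.04, 1.34 and 0.60 on RV arrays 1 to 4. It was -1.89, -1.91 and -1.97 on the LV arrays and -0.04, -0.96 and 0.38 on the septum arrays. The LV arrays lay close together and below all others, while RV and septum overlapped. RV exceeded LV by 2.42 (SE 0.36, 95% confidence interval 1.60 to 3.24), a 5.34-fold difference with an adjusted p of 0.0089 in limma. The call held in each of 10 fits that left out 1 array, with differences of 2.14 to 2.58, but not in the analysis of variance, and the difference was 1.92 within slide 1 and 2.93 within slide 2.

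Prelp encodes a proline- and arginine-rich leucine-rich repeat protein that links collagen to heparan sulfate in basement membranes. Its level was 4.58, 4.54, 5.85 and 5.35 in RV, 3.69, 3.81 and 4.08 in LV, and 5.01, 4.50 and 5.31 in the septum. All RV and septum arrays lay above all LV arrays, and RV arrays 3 and 4 stood highest. The RV to LV difference was 1.22 (SE 0.32, 2.33-fold) and did not pass in limma (adjusted p = 0.0703). It passed with the replicate block (1.13, adjusted p = 0.0267) and with the slide as a block (adjusted p = 0.00801), a fit that called 7.24% of all probes higher in RV and 17.6% in either direction. The second Prelp probe gave 0.97 (SE 0.33, adjusted p = 0.146), also with no overlap.

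Omd encodes osteomodulin, also called osteoadherin, a keratan sulfate proteoglycan of mineralised matrix. Its level was -0.66, -0.99, -0.02 and -0.75 in RV, against -1.59, -1.70 and -1.97 in LV. The septum arrays lay between, at -0.82, -1.31 and -1.24, above all LV arrays and within the range of RV for only 1 array. RV exceeded LV by 1.15 (SE 0.22, 2.22-fold, adjusted p = 0.0240). The call was lost without RV array 1, RV array 4 or any of the 3 LV arrays, where the differences were 1.04 to 1.23 and the adjusted p 0.0534 to 0.0860.

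Lum encodes lumican, the keratan sulfate proteoglycan that keeps corneal collagen fibrils thin and evenly spaced. Its level was 4.17, 4.24, 4.44 and 4.01 in RV, 3.89, 3.99 and 2.85 in LV, and 4.31, 4.14 and 3.53 in the septum. LV array 3 stood far below the other arrays, and the highest LV array lay just under the lowest RV array. The difference of 0.64 (SE 0.28) did not pass (adjusted p = 0.245), and it was 0.28 without LV array 3.

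Fmod and Prelp are neighbours on mouse chromosome 1, in the order Optc, Prelp, Fmod, and lie on opposite strands. The stretches of 250 bases before the start of both genes, and of Omd, are shown because these are the members with the largest RV to LV differences. The sequences are from RefSeq on GRCm38.p6, 5′ to 3′ along the gene's strand. Capitals mark matches, on either strand, to the TATA box (letters TATAAA), the GC box (letters GGGCGG), the TEAD motif (letters CATTCC), the AP-1 motif (letters TGANTCA, where N is any base) or the SOX motif (letters AACAAT). Among 32851 promoter stretches of this length, these motifs occurred in 12.4%, 32.7%, 12.6%, 6.75% and 9.42%, in that order. The Fmod stretch is chr1:134037004-134037253 on the plus strand, Prelp chr1:133921402-133921651 on the minus strand and Omd chr13:49582212-49582461 on the plus strand.
Fmod: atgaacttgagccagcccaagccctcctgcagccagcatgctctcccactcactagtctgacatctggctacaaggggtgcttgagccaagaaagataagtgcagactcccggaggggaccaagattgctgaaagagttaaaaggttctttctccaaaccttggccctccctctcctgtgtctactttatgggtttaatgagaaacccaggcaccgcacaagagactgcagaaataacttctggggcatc
Prelp: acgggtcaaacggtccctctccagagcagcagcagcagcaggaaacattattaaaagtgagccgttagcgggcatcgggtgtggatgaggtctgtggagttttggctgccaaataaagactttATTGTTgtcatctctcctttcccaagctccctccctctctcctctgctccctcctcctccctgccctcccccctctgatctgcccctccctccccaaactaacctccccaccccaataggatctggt
Omd: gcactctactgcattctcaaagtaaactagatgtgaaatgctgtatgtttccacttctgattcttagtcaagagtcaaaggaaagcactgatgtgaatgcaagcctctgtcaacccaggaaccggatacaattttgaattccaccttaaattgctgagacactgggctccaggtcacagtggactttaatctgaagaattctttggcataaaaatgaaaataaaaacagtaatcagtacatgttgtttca
The Fmod and Omd stretches held 0 of these motifs, and Prelp held 1 match to the SOX letters, 127 to 122 bases before its start. A motif that is missing from this window says nothing of the factor or of other windows.

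Dcn encodes decorin, which carries a single chondroitin or dermatan sulfate chain, coats collagen fibrils and binds TGF-beta. Its level was 8.22, 8.15, 8.17 and 8.15 in RV, 7.84, 7.80 and 7.51 in LV, and 8.07, 7.96 and 7.77 in the septum. The RV arrays lay close together and above all LV and septum arrays. RV exceeded LV by 0.46 (SE 0.10, 95% confidence interval 0.23 to 0.69, 1.37-fold, adjusted p = 0.0428). This call was close to the threshold, since it remained in only 1 of the 10 fits that left out an array, the one without septum array 3. In the other 9 fits the adjusted p was 0.0509 to 0.114 and the difference 0.35 to 0.52. Within slides the difference was 0.36 and 0.66.

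Bgn encodes biglycan, the closest relative of decorin, which also signals through Toll-like receptors once released from the matrix. Its level was 0.97, 1.27, 1.90 and 1.53 in RV, 0.78, 0.96 and 0.64 in LV, and 1.15, 1.11 and 1.16 in the septum. RV arrays 3 and 4, both on slide 2, stood above the other 8 arrays. The difference of 0.62 (SE 0.19, 1.54-fold) did not pass (adjusted p = 0.103). Without RV array 1 it was 0.77 with an adjusted p of 0.0469. With replicate numbers as random effects, a fit that keeps RV array 4, it was 0.60 with an adjusted p of 0.0373. That fit called 19.2% of all probes in either direction. The difference was 0.25 within slide 1 and 1.07 within slide 2.

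Aspn encodes asporin, a relative of decorin that carries no sulfated chain and restrains TGF-beta. Its level was -0.90, -0.81, -0.04 and -0.18 in RV, -0.57, -0.58 and -0.69 in LV, and -0.36, -0.45 and -0.43 in the septum. The RV arrays of slide 1 were the lowest of all 10 and those of slide 2 the highest. The RV to LV difference was 0.13 (SE 0.20, 95% confidence interval -0.32 to 0.57, adjusted p = 0.780), with -0.28 within slide 1 and 0.58 within slide 2, so its direction depended on the slide.

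Ogn encodes osteoglycin, also called mimecan, a small member of the family that affects collagen fibril thickness. Its level was 5.0, 4.84, 4.87 and 4.81 in RV, 4.76, 4.50 and 4.28 in LV, and 4.77, 4.60 and 4.39 in the septum. All RV arrays lay above all arrays of both other regions. The RV to LV difference of 0.36 (SE 0.13, 1.29-fold) did not pass (adjusted p = 0.152). It passed with the replicate block (0.39, adjusted p = 0.0279) and with the slide as a block (0.40, adjusted p = 0.0219).

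Aspn, Omd and Ogn are neighbours on mouse chromosome 13, in the order Ecm2, Aspn, Omd, Ogn. Their stretches are shown for comparison with that of Omd above, since Omd and Ogn stood higher in all RV than in all LV arrays and Aspn did not. The Ogn stretch is chr13:49607765-49608014 and the Aspn stretch chr13:49544193-49544442, both on the plus strand of GRCm38.p6.
Ogn: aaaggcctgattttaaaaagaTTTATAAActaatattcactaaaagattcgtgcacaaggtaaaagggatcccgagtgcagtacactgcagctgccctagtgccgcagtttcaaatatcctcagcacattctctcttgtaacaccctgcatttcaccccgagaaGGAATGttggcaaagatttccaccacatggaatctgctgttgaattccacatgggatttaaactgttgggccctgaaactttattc
Aspn: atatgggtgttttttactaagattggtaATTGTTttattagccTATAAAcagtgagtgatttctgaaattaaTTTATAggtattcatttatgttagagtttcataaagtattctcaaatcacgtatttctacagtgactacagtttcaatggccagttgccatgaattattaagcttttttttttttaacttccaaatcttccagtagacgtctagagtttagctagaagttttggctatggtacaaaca
The capitals of Ogn are 2 overlapping matches to the TATA box letters, 229 to 222 bases before the start, and 1 match to the TEAD letters, 86 to 81 bases before it. Aspn held 2 TATA box matches, 207 to 202 and 178 to 173 bases before its start, and 1 SOX match 222 to 217 bases before it. In Aspn, G and C made up 30.0% of its bases against a median of 52.4% over all stretches. Promoter stretches of Dcn and Lum are not shown. Bgn, Podn and Vcan each had a stretch with GC boxes, with 3, 2 and 2 matches, of which a pair overlapped in Bgn, and a second stretch of Podn held 0 matches to any of the motifs.

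Podn encodes podocan, a proteoglycan of smooth muscle and vessel walls. Its level was 1.14, 1.11, 1.33 and 1.28 in RV, 1.25, 1.23 and 1.18 in LV, and 1.51, 1.26 and 1.23 in the septum. The 3 regions overlapped. RV minus LV was -0.01 (SE 0.09, 95% confidence interval -0.22 to 0.20, adjusted p = 0.976), and this sign turned under quantile normalization (0.03) and when arrays were scaled by probes above background on all of them (0.05).

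Vcan encodes versican. Its brightest probe read -0.71, -0.69, -0.69 and -0.87 in RV, -0.75, -0.68 and -0.89 in LV, and -0.58, -0.46 and -0.66 in the septum. RV and LV overlapped, and the septum stood above both. RV minus LV was 0.03 (SE 0.09, 95% confidence interval -0.16 to 0.23, adjusted p = 0.869). A second probe, assigned to another RefSeq transcript, read -0.96, -0.99, -0.38 and -0.90 in RV, -1.25, -1.32 and -1.55 in LV, and -0.34, -0.88 and -0.75 in the septum. On that probe all RV arrays lay above all LV arrays, with a difference of 0.56 (SE 0.18, adjusted p = 0.115), so the probes of Vcan disagreed in the size of the difference. A further Vcan probe was well above background on 6 of 10 arrays and was not tested.

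**Figure D2:**
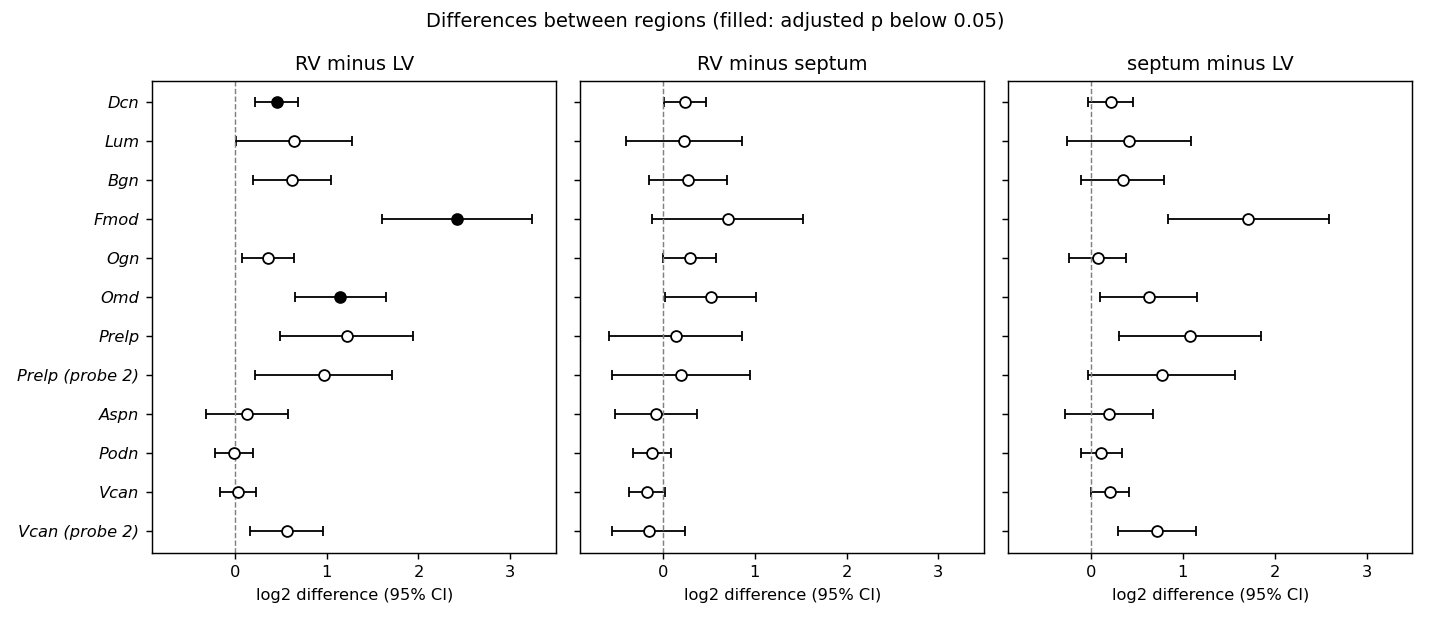
Difference between regions (log2, horizontal axis) for the 12 tested probes of the 10 genes, with 95% confidence intervals from limma; filled points passed an adjusted p of 0.05. Only Fmod, Omd and Dcn are filled, in the comparison of RV with LV. The intervals of Aspn, Podn and the brightest Vcan probe span 0 in all 3 comparisons.

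Between RV and the septum the members differed less. Of the 10 genes, 7 had a higher mean in RV, and the median difference was 0.23 against -0.04 over all genes. That median was -0.0118 within slide 1, 0.42 within slide 2 and 0.13 without RV array 3. Limma called 0 members, while it called 2.08% of all probes, and the analysis of variance also called 0. At an unadjusted p under 0.05 there were 3, namely Dcn, Ogn and Omd, beside 14.1% of all probes. The RV arrays of Dcn and Ogn lay above all septum arrays, with differences of 0.24 (SE 0.10, adjusted p = 0.333) and 0.29 (SE 0.13, adjusted p = 0.346), and 5.86% of all probes had that order. The brightest Vcan probe lay the other way, with all septum arrays above all RV arrays, as for 7.83% of all probes. Its difference was -0.17 (SE 0.09, adjusted p = 0.424). On the second Vcan probe RV and the septum overlapped (-0.15, SE 0.18, adjusted p = 0.779). For Prelp the difference was 0.14 (SE 0.32, 95% confidence interval -0.58 to 0.86), and it was -0.19 within slide 1. For Fmod it was 0.70 (SE 0.36, adjusted p = 0.435).

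Between the septum and LV all 10 genes had a higher mean in the septum, with a median difference of 0.28 against -0.02 over all genes, or 0.15 without LV array 3. Limma called 0 members and 0 of the 30234 probes, so percent called was 0%, with 862 probes (2.85%) at an unadjusted p under 0.05. The analysis of variance called 0 members too. By their brightest probes, Fmod, Prelp and Omd were the 3 members at an unadjusted p under 0.05 in limma. Fmod was higher in the septum by 1.71 (SE 0.39, 3.28-fold, unadjusted p = 0.00152, adjusted p = 0.541), Prelp by 1.08 (SE 0.34, adjusted p = 1) and Omd by 0.63 (SE 0.24, adjusted p = 1). For 6 members, Bgn, Fmod, Omd, Prelp, Aspn and Vcan, all septum arrays lay above all LV arrays, while 3.54% of all probes had that order. The second Vcan probe also had an unadjusted limma p under 0.05. It was higher in the septum by 0.72 (SE 0.19, unadjusted p = 0.00388, adjusted p = 0.792).

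Ordered by mean level, 7 members ran from RV over the septum to LV, namely Dcn, Lum, Bgn, Fmod, Ogn, Omd and Prelp. Of these, RV and the septum overlapped for Lum, Bgn, Fmod, Omd and Prelp, and the septum and LV overlapped for Dcn, Lum and Ogn. Aspn and Vcan ran from the septum over RV to LV, and Podn from the septum over LV to RV. RV and LV overlapped for these 3 genes. A moderated F test over the 3 regions called Fmod alone among the members (adjusted p = 0.0205), where 2.78% of all probes were called. Omd had an adjusted p of 0.0552 and Dcn of 0.0935. The call of Fmod in this test was lost in the fits without LV array 1, LV array 2, LV array 3 or RV array 4. With the replicate block the F test called 3 members and 8.83% of all probes.

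Other proteoglycan genes of the same chromosomal groups gave mixed values. Dcn and Lum are followed on chromosome 10 by Kera and Epyc. Epyc, which encodes epiphycan of cartilage, was above background on 4 of 4 RV arrays, 3 of 3 septum arrays and 0 of 3 LV arrays. It was at least 2.71-fold higher in RV than in LV (adjusted p = 0.0127 in limma) and at least 2.54-fold higher in the septum (adjusted p = 0.274). These bounds set the RV or septum mean against the lowest signal that was well above background on each LV array. The adjusted p values belong to the fitted differences and not to the bounds. They rest on LV values of which 0 of 3 were well above background. Kera, which encodes keratocan of the cornea, was above background on 1 RV array only and was not tested. Ecm2, beside Aspn, differed by 0.19 between RV and LV (SE 0.14, adjusted p = 0.496). Optc, beside Prelp, encodes opticin of the eye and was above background on 4 RV arrays, 1 LV array and 2 septum arrays. Its fitted RV to LV difference of 2.42 (SE 0.72, adjusted p = 0.101) therefore rests on LV values of which 2 of 3 were not well above background. Hapln1, the link protein gene beside Vcan, was above background on 2 RV arrays, 0 LV arrays and 1 septum array.

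**Figure D3:**
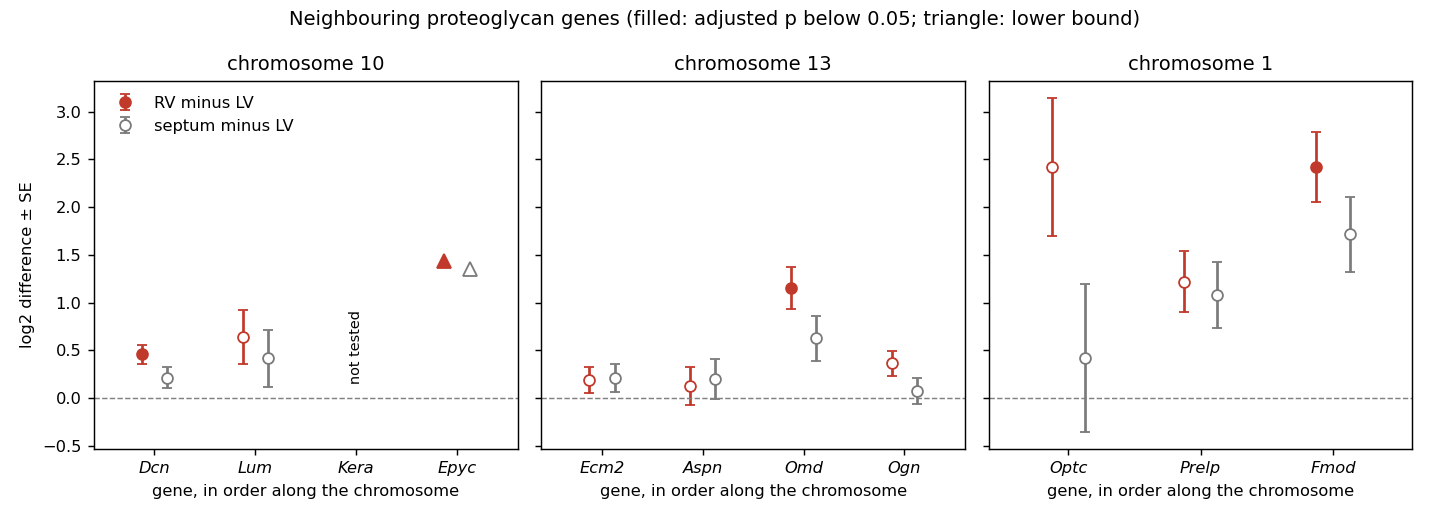
Difference from LV (log2 ± SE) for RV and septum in neighbouring proteoglycan genes, in their order along chromosomes 10, 13 and 1; filled symbols passed an adjusted p of 0.05 and triangles for Epyc are lower bounds. Omd stands at 1.15 between Aspn at 0.13 and Ogn at 0.36, and Kera was not tested. The fill of the Epyc triangles follows the test of the fitted difference.

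Genes that act with the proteoglycans were counted in 6 lists. Of all genes tested, 3.14% were called higher in RV than in LV and 1.68% higher than in the septum. With the replicate block, 6.23% of all probes were called higher in RV than in LV. Of the 20 other proteoglycan genes, 13 were tested between RV and LV, and 1, Epyc, was called, with a median difference of 0.19. The count was 0 without LV array 1, and 0 of 11 with only probes well above background on every array. Of 10 tested genes of hyaluronan and its link proteins, 2 were higher in RV, and 5 with the replicate block. They were Cemip2 (0.74, SE 0.13, adjusted p = 0.0168), which encodes a membrane protein linked to hyaluronan breakdown, and Hyal1 (0.68, SE 0.14, adjusted p = 0.0306), a lysosomal hyaluronidase. Of 24 tested genes that build glycosaminoglycan chains, 1 was higher in RV, Csgalnact1 (0.58, SE 0.11, adjusted p = 0.0216), which starts chondroitin chains. Without 1 of the LV arrays the count for chain synthesis was 0, and for hyaluronan genes it was 1, 0 and 0 without LV arrays 1, 2 and 3, 1 without RV array 4 and 4 without RV array 2. Csgalnact1 was also higher in RV than in the septum (0.56, adjusted p = 0.0359), and of the fits that left out an array the one without RV array 2 alone kept a call of this list there. With the replicate block 5 of the 24 were higher and 2 lower in RV than in LV. By analysis of variance the counts between RV and LV were 0 for other proteoglycans, 0 for hyaluronan genes and 1 for chain synthesis. Of 11 tested proteases that cleave proteoglycans and their partners, 0 passed in limma, and 1 was higher and 1 lower with the block.

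The fibrillar matrix to which these proteoglycans bind moved in the same direction as most members. Of 22 tested genes, 21 had a higher mean in RV than in LV, the median difference was 0.52, and 3 were called, which is to be read against 3.14% of all genes called higher in RV. These were Fn1, fibronectin (1.17, SE 0.21, adjusted p = 0.0188), Fbln1, fibulin-1 (0.77, SE 0.18, adjusted p = 0.0485), and Col5a2, a collagen V chain (0.77, SE 0.16, adjusted p = 0.0366). The count was 0 without LV array 1, LV array 2, LV array 3 or RV array 4, and 0 by analysis of variance, and without another array it was 1 to 4. With the replicate block 3 were higher and 1 lower. The median difference of these 22 genes was 0.18 within slide 1 and 0.79 within slide 2. Of 16 tested growth factors and receptors linked to these proteoglycans, 2 were called, Egfr (0.46, adjusted p = 0.0364) and Tgfbr2 (0.42, adjusted p = 0.0388). With 1 array left out this count was 1 without RV array 1 or RV array 3 and 0 in the other 8 fits, and it was 0 with scaling by the median and by analysis of variance. With the replicate block 5 of these 16 were higher and 2 lower. Without the block, Csgalnact1 was the only call of the 6 lists in RV against the septum, and the septum and LV gave 0 calls in them. With it, each list held at most 2 higher and 1 lower between RV and the septum.

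Marker genes of other cell types also differed between the regions. Of 15 fibroblast markers, all above background on every array, 14 had a higher mean in RV than in LV and 2 were called, Tcf21 (0.56, adjusted p = 0.0208) and Pdgfra (0.40, adjusted p = 0.0364). The count was 0 without RV array 2 or any of the 3 LV arrays. In RV against the septum, where 0 members were called, 14 of the 15 had a higher mean in RV and 2 were called, Tcf21 (0.52, adjusted p = 0.0378) and Scara5 (0.50, adjusted p = 0.0399). Of the fits that left out an array, that without RV array 3 called 2, that without septum array 1 called 1 and the other 8 called 0. The list shares 4 genes with the fibrillar matrix list, Col1a1, Col1a2, Col3a1 and Mfap4. Its mean level, centred on the mean over all arrays, was -0.06 to 0.48 in RV, -0.36 to -0.13 in LV and -0.10 to -0.07 in the septum. Of 9 tested cartilage and tendon-like markers, 4 were called higher in RV than in LV. They included Ucma, at least 6.53-fold higher and above background on 0 LV arrays, Comp (2.91) and Cytl1 (1.91). Of the 9, 6 had a higher mean in RV, while Scx (1.22 in RV and 1.81 in LV), Col9a1 (-3.55 and -3.20) and Sox9 (-0.34 and -0.28) had a lower one and were not called. Within slide 1, 3 were called higher and 1 lower. Acan, Hapln1, Matn3 and Tnmd were above background on at most 2 arrays of any region and were not tested. The centred mean of the list was 0.09 to 0.97 in RV, -1.17 to -0.77 in LV and 0.00 to 0.68 in the septum. LV thus lay below both other regions, as it did for Fmod, Prelp, Omd and Bgn and for the mean of the adipocyte markers described next. The part of these cells in the member differences was not tested.

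Adipocyte and mesothelium markers differed between regions too. The list means ran from RV over the septum to LV for adipocyte markers, and from RV over LV to the septum for mesothelium markers. Of 11 tested adipocyte markers, 6 were called higher in RV than in LV. The other 5, Fabp4, Lpl, Plin4, Cidea and Lep, had a lower mean in RV, down to a difference of -0.35 for Cidea, 2 of them with no overlap, and with the replicate block 5 of the 11 were called higher and 1 lower. Of the 6 called higher, Adipoq, Plin1 and Pck1 were above background on 0 LV arrays, so their tests rest on LV values not well above background. With only probes well above background on every array, 3 of 8 were called higher in RV than in LV. The median difference was then -0.17, against 3.26 in the fit reported. In RV against the septum 3 of the 11 were called higher, or 1 with the replicate block, where 1.68% of all genes were called higher without the block. That count was 0 without any 1 of the 4 RV arrays, LV array 2, septum array 2 or septum array 3, 2 without LV array 1 and 5 without septum array 1. Their centred mean was 0.77 to 1.13 in RV, -1.52 to -0.76 in LV and -0.53 to 0.39 in the septum. The differences of Car3 (4.93) and Cidec (4.24) were large, and Adipoq, above background on 0 LV arrays, exceeded its LV bound by at least 14.5-fold in RV. Of 12 tested mesothelium markers, 1 was called higher in RV than in LV, Krt18 (1.62, adjusted p = 0.0259), or 9 with the replicate block, and 11 passed as higher in RV when set against the septum, where 0 members were called. The count of 11 was 0 without septum array 2, 3 without RV array 4, 4 without RV array 1, RV array 2 or septum array 3, 7 without LV array 1, and 1 by analysis of variance. That of 1 between RV and LV was 0 without RV array 1, 2 or 4 or any LV array, and 3 without RV array 3. Their centred mean was 0.49 to 1.92 in RV, -0.68 to 0.09 in LV and -2.67 to -0.82 in the septum. Between RV and LV, 2 of 11 endothelium markers (Vwf and Npr3) and 1 of 6 atrial markers (Dkk3) were called higher in RV, and with the replicate block 4 endothelium markers were higher and 2 lower. The endothelium count was 1 in the fits that left out an array, except 2 without RV array 3 or septum array 3. In RV against the septum, 1 endothelium marker, Vwf (1.18, adjusted p = 0.0212), was called higher, and the count was 0 without RV array 1, RV array 2, septum array 2 or septum array 3 and 2 without RV array 3 or LV array 3. Of the atrial markers, 4 had a higher mean in RV than in LV, while Nppa lay lower on all RV than on all LV arrays (4.40 and 6.61 on average, difference -2.21, adjusted p = 0.0504), and with the replicate block 1 was called higher and 1 lower. The atrial count was 0 without LV array 1. Between the septum and LV, all 6 atrial markers had a higher mean in the septum (median difference 1.93) and 0 were called. The centred mean of the atrial list was 2.33, 0.76 and -0.29 on septum arrays 1 to 3. It was -0.16, -1.52 and -0.01 on LV arrays 1 to 3. The smooth muscle and pericyte, macrophage, cardiomyocyte and blood lists held 0 calls by limma in all 3 comparisons. All 11 macrophage markers had a higher mean in RV than in LV (median difference 0.30) and than in the septum (0.29). Against LV, 5 of 11 smooth muscle and pericyte, 1 of 12 cardiomyocyte and 0 of 4 blood markers did, beside 39.4% of all genes. In the smooth muscle list, 3 had all RV arrays above all LV arrays and 1 all below, beside 1340 and 1952 of 14645 genes. With the replicate block, 4 of 11 macrophage markers were higher in RV than in LV, and 2 of 11 smooth muscle and pericyte markers were higher and 2 lower. Their part in the member differences was not tested.

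**Figure D4:**
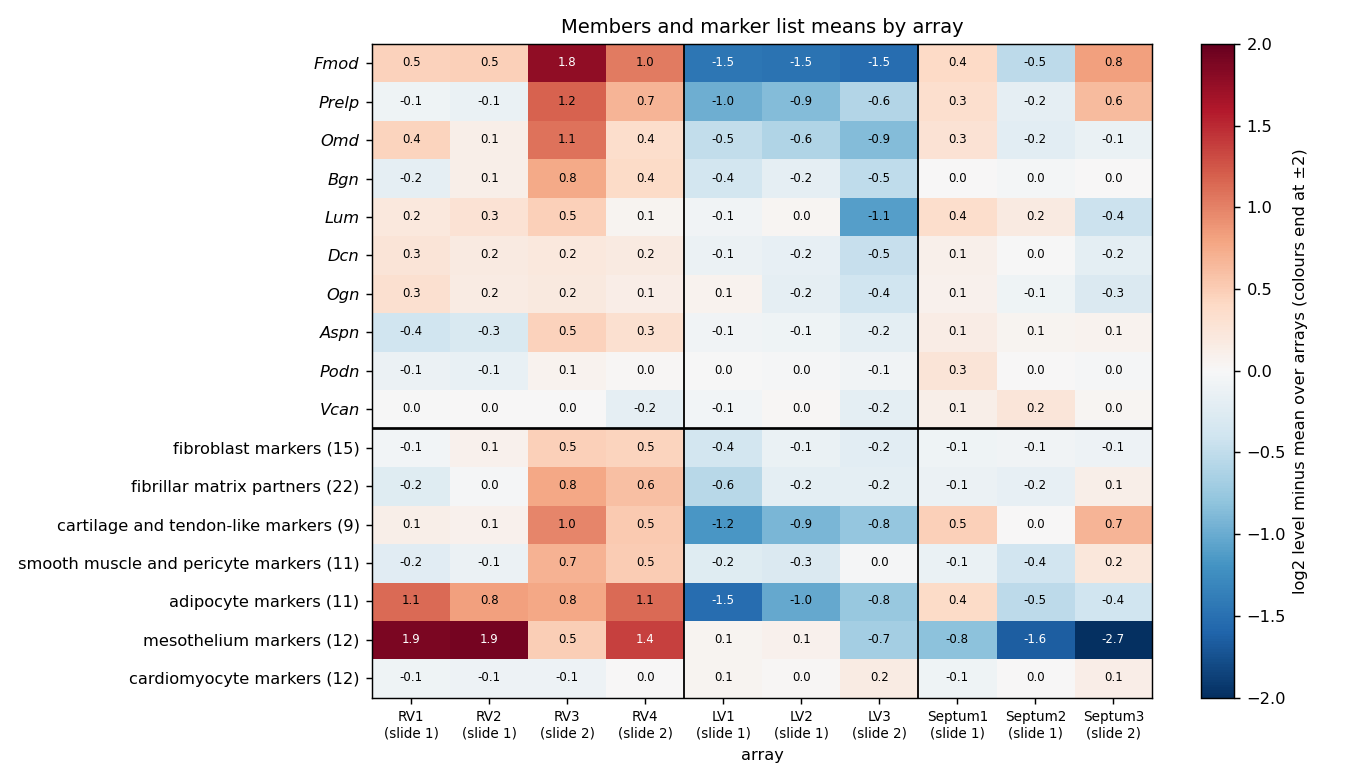
Level minus its mean over the 10 arrays (log2, colour and printed value) for the 10 genes, above the line, and the mean of 7 gene lists, below it, with the number of tested genes in brackets; columns are arrays grouped by region. RV arrays 3 and 4 of slide 2 are highest for Fmod, Prelp and the fibrillar matrix list, and the LV arrays lie between -1.17 and -0.77 for the cartilage and tendon-like list.

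Within RV the arrays of slide 2 stood above those of slide 1 for Bgn, Fmod, Prelp, Aspn and Podn, and not for Dcn, Lum, Ogn, Omd and Vcan. The fibrillar matrix list had centred means of -0.25 and -0.02 on RV arrays 1 and 2, and of 0.78 and 0.60 on RV arrays 3 and 4. The smooth muscle and pericyte list had -0.22, -0.11, 0.70 and 0.50 on the same arrays. Fibroblast markers had -0.06, 0.08, 0.48 and 0.45 there, and cartilage and tendon-like markers 0.12, 0.09, 0.97 and 0.52. Mesothelium markers lay the other way, at 1.89, 1.92, 0.49 and 1.37. Higher values on slide 2 were thus not particular to the fibrillar matrix and smooth muscle lists. The part of these markers and of the slide in the spread among RV arrays was not tested.

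Across the 10 arrays the members fell into profiles that resembled each other to different degrees. Fmod was most like Prelp (Pearson's r = 0.945) and Omd (r = 0.914), and Bgn was most like Fmod (r = 0.869). Dcn was most like Ogn (r = 0.928) and Lum (r = 0.882). Vcan had a median r of 0.126 with the other 9 members. These values describe 10 arrays that share 3 regions and 2 slides, and they carry no test. The 5 other genes whose profile was most like the mean of the members, among 14635 compared, were Tspan11 (r = 0.994), Fxyd6 (r = 0.988), Sertad4 (r = 0.981), Tenm3 (r = 0.981) and Paqr6 (r = 0.979). That mean gives most weight to genes with a wide spread over the arrays, such as Fmod.

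**Figure D5:**
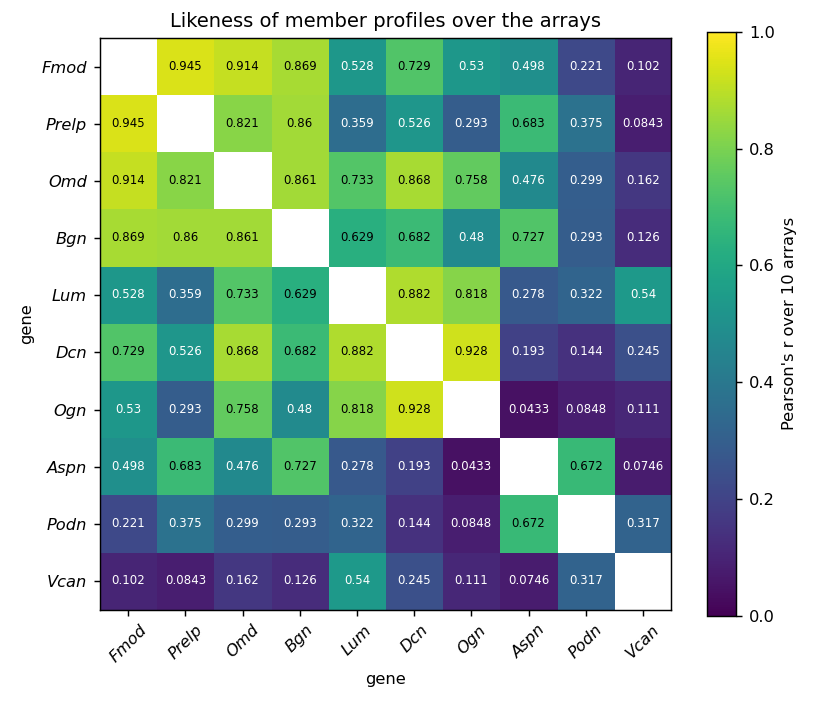
Pearson's r between the profiles of the 10 genes over 10 arrays (colour and printed value; axes list the genes). Fmod and Prelp (0.945) and Dcn and Ogn (0.928) are the pairs with the highest values, and the row of Vcan is low except with Lum (0.540).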

How the data were processed

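The authors extracted total RNA from frozen heart pieces and hybridised Cy3-labelled cRNA to SurePrint mouse arrays. The authors deposited intensity values per spot, made by Agilent Feature Extraction 11.5.1.1 per the file headers, which subtract the background and remove trends but are not scaled between arrays. The authors also deposited log2 values per probe made with GeneSpring. Of these, 100.0% lay within 0.05 of the values computed here, once each array's median offset between both sets was removed.

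Groups and numbers came from the sample titles. Control and outlier spots were left out, spots of a probe were averaged on the log2 scale, and each array was scaled by subtracting its 75th percentile. A probe was tested where all arrays of 1 or more regions had it well above background (30234 of 56605, 53.4%). Probes were named through RefSeq accessions and a gene table of GRCm38.p6. The array headers name another build, so coordinates are given only for RefSeq promoter sequences, and 8 of 10 members had one in the table used. Limma 3.58.1 in R 4.3.3 fitted a mean per region to all 10 arrays (lmFit, eBayes, prior degrees of freedom 2.46, two-sided), with Benjamini-Hochberg adjustment over all probes and a call at an adjusted p below 0.05. A gene below background on all arrays of a group has only a lower bound of its fold change. The fits were tested on simulated data.

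The members, the 17 gene lists and the tests were chosen with earlier results of these data known. All members are named. Pathway lists name up to 4 called genes per comparison with the largest differences, marker lists up to 3, and neighbours on the chromosome are named where they are proteoglycans of the lists. Not all called marker genes are named, and marker genes that lay lower in RV were named after their values were seen. The labels do not state that arrays of a region came from separate mice beyond the design text, so p-values measure the spread between these samples.

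The replicate block takes the numbers to pair the samples, which the labels do not state. Same-numbered arrays deviated together from their region means (correlation 0.359 to 0.645 over 9 pairs). Arrays of one slide with other numbers also correlated (0.0906 to 0.577 over 8 pairs), against -0.564 to -0.207 for 16 pairs on different slides. On slide 1 the same-numbered pairs (0.359 to 0.523) lay above those with other numbers (0.0906 to 0.309). On slide 2, RV array 4 correlated with LV array 3 (0.572) and septum array 3 (0.577) more than RV array 3 did (0.426 and 0.443). There the values do not show which RV array belongs with the other pieces. The alternatives were other scalings, normexp background correction with an offset of 50 (on median spot signals, since those were the raw signals used here), the deposited log2 table, other filters, slide and replicate blocks, single slides, fits of only 2 regions, the next brightest probe, analysis of variance with Tukey's correction, and leaving out each array.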

Additional observations from a re-analysis of the deposited data

Results flagged for a closer look

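The Vcan level on RV array 4 (-0.87) stood apart from those of the other RV arrays (-0.71, -0.69 and -0.69). Its gap to the nearest array was 0.883 of the range of the 4 arrays, above the 95% critical value of Dixon's test for 4 values. A criterion of this kind marks about 1 in 20 groups by chance, and 10 genes were examined.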

How the results depend on the processing

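The number of members called between RV and LV, 3 in the fit reported, was 3 or 2 under the other scalings, normexp, the deposited log2 table, the stricter filter and the next brightest probe. It was 1 with no filter, 5 with the slide as a block, 1 within slide 1, 0 within slide 2, 5 with the replicate block, 6 with replicate numbers as random effects (with Ogn, Prelp and Bgn in addition), 1 with only the arrays of both regions, 0 by analysis of variance and 1 to 3 when an array was left out. Of all probes, the slide block called 17.6%, the replicate block 14.9% and random replicate numbers 19.2%, against 3.86% in the fit reported. Within a single slide and in fits of 2 regions fewer arrays enter. Between RV and the septum the count of 0 became 1 with the random replicate block (Ogn, 0.30, adjusted p = 0.0424), and between the septum and LV it was 0 in all alternatives run. The F test called 1 member. It called 2 with scaling by probes above background on all arrays, 2 with normexp and 2 with only probes above background on every array. It called 0 with no filter, 0 within slide 1, 0 within slide 2 and 0 by analysis of variance. With the slide as a block it called 5, beside 12.7% of all probes, and with the replicate block 3, beside 8.83%. With the random replicate block it called 5, beside 14.9%, and when an array was left out it called 0 to 2. Except where stated, the cause was not tested. Apart from the F test, the fixed replicate block changed no other member call than those of Ogn and Prelp between RV and LV.

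Differences of single members that changed sign were all of members not called in that comparison. Between RV and LV these were Aspn within slide 1 (-0.28), and Podn with quantile normalization (0.03), with scaling by probes above background on all arrays (0.0475) and within slide 2 (0.12). With an array left out, the ranges were -0.0197 to 0.27 for Aspn, -0.0452 to 0.0264 for Podn and -0.0254 to 0.0816 for Vcan. Between RV and the septum they were Lum (-0.0166), Bgn (-0.00699) and Prelp (-0.19) within slide 1, and Aspn (0.32) and Podn (0.0753) within slide 2. With an array left out, the ranges were -0.00655 to 0.38 for Lum, -0.12 to 0.33 for Prelp and -0.22 to 0.0704 for Aspn. Between the septum and LV, Ogn ran from -0.0460 to 0.19 with an array left out. Dcn was also no longer called between RV and LV with scaling by the median (0.43, adjusted p = 0.0557) and with normexp (0.47, adjusted p = 0.0522). Signal over background did not limit the brightest probe of any member, but it left the third Vcan probe untested.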
